A study of Mus musculus with 4 samples.

Results

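Complement genes were followed in mouse liver tumors in which the tumor suppressor p53 had been switched back on. The set was 9 named genes (C1qa, C1qb, C1qc, C1ra, C2, C3, C3ar1, C5ar1 and Cfb), taken as every probe set annotated to exactly 1 of these symbols. On this basis 8 genes with 15 probe sets were measured, of 18193 genes and 45037 non-control probe sets in all. C3 was not analysed here, because the annotation used paired it with no probe set, and a probe set annotated to both C1ra and C1rb was left out.

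The tumors grew from liver progenitor cells that had been transplanted into host livers, carried the oncogene HrasV12, and held a tet-off short hairpin RNA against p53. Total RNA of 4 tumor samples was measured on Affymetrix whole-genome mouse arrays, 1 array per sample. In the 2 p53 on samples doxycycline had been given for 8 days, which stops the hairpin, and in the 2 p53 off samples for 0 days, so that the hairpin was made and p53 was suppressed. Both groups carried HrasV12 and the hairpin; no sample had doxycycline without the hairpin, so that p53, doxycycline and time cannot be told apart. The labels give neither the promoters of the constructs, nor the strain or age of the mice, nor whether replicates are separate animals or tumors, so the p-values reflect the spread between these arrays alone, and that spread may be technical. Values are log2 expression values, 1 unit being a doubling. In whole tumors, more cells of a type and more RNA per cell cannot be told apart.

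Complement is a cascade of blood proteins that marks cells and debris for removal. In the classical pathway the recognition molecule C1q, built from the products of C1qa, C1qb and C1qc, carries the proteases C1r and C1s, which cleave C4 and C2. In the alternative pathway factor B, encoded by Cfb, supplies the protease that cleaves C3. Fragments of C3 and C5 act on cells through the receptors encoded by C3ar1 and C5ar1. The liver makes most circulating complement, whereas C1q comes mainly from macrophages and related myeloid cells, and C1r and C1s are also made by fibroblasts.

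The promoters of 5 of the measured genes were held in the sequence table. Those of C1qb and C1qc are shown because these adjacent genes moved together, and those of C1ra and of C1s1, its adjacent partner gene, because they had the largest changes among the complement genes measured. Each runs from 250 bases before to 50 bases after the start of the gene (RefSeq, GRCm38.p6), 5′ to 3′ on the strand of the gene, and capitals mark GAGGAA, the core bound by ETS factors such as the macrophage regulator PU.1, or its reverse complement.
C1qb, chr4:136886151-136886450 (- strand): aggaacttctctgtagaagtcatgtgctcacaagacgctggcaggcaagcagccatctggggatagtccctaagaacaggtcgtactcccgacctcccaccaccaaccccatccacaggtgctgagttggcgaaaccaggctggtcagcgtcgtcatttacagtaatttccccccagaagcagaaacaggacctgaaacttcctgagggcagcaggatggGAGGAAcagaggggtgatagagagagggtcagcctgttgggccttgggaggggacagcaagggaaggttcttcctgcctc
C1qc, chr4:136892865-136893164 (- strand): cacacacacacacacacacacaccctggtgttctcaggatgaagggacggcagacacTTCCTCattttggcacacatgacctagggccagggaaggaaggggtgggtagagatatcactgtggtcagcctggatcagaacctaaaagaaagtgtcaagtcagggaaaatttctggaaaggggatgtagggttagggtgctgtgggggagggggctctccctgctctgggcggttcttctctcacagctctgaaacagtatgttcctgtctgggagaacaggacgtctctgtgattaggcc
C1ra, chr6:124512371-124512670 (+ strand): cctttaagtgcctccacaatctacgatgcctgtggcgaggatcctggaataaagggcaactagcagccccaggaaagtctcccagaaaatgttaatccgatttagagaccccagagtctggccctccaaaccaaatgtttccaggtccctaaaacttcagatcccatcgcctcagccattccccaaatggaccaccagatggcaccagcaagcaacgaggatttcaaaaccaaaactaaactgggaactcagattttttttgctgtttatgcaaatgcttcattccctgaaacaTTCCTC
C1s1, chr6:124542310-124542609 (- strand): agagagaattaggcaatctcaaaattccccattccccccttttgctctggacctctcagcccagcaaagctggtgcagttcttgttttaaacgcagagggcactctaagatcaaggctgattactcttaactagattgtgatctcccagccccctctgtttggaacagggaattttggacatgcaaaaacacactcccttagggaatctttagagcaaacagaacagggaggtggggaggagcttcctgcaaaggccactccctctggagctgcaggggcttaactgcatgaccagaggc
The first of the entries of C1s1 in the table is shown, and it holds no capitals. A GAGGAA on either strand was present in 3 of the 5 promoters (C1qb, C1qc and C1ra, 1 match each) and in 28.3% of all 32851 promoters of the table. A loose NF-kB pattern, GGG and CC with any 5 bases between them, was found in 3 of 5 (C1qb, C1qc and C3ar1), against 50.8% of all. The STAT pattern TTCNNNGAA was found in 1 of 5 (C1ra), against 8.3%, and the interferon response pattern, GAAA and GAAA with any 2 bases between them, in 0 of 5, against 3.44%. Both strands were searched for each pattern. The matches of the NF-kB pattern in C1qb overlapped each other, as did those in C1qc, and no match of it overlapped a GAGGAA. These letter matches are descriptions of the windows and not binding sites.

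Arrays of a group were close to each other. The p53 on arrays correlated with each other at r = 0.99315 and the p53 off arrays at r = 0.99685 across genes, and pairs from different groups at 0.96524 to 0.97163; genes are not independent replicates. The difference between 3′ and 5′ beta-actin control probe sets, which reports on RNA integrity, was 0.48 and 0.49 in p53 on and 0.39 and 0.26 in p53 off, so that it moved with the groups, and its part in the results below was not tested. With limma, 28.7% of 18193 genes passed an adjusted p of 0.05, 14.0% higher and 14.7% lower in p53 on. The share of calls that were higher was 48.8%, or 37.9% after centring arrays on their medians and 70.0% after scaling to spike-in controls, which placed the median change of all genes at 0.15 (0.02 as deposited). The targeted gene was not analysed here, and the p53 status of a sample is known from its label alone.

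Every measured complement gene of the set was higher in p53 on. All 8 were called by limma with Benjamini-Hochberg adjustment, against a background of 14.0% of genes called higher, and in all 8 both p53 on arrays lay above both p53 off arrays, which was so for 36.3% of genes. The median change was 0.76 on the log2 scale, beside 0.02 over all genes. The largest rise was that of C1ra, at 3.40-fold, and the smallest that of C2, at 1.33-fold in its brightest probe set. All 8 were also higher under the other scalings, by 0.33 (C2) to 1.69 (C1ra) after median centring and by 0.54 to 1.90 after spike-in scaling. The number called was 5 without p53 off replicate 2, with the calls of C2, C5ar1 and Cfb lost, and 7 without p53 off replicate 1, with that of C2 lost.

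**Figure D1:**
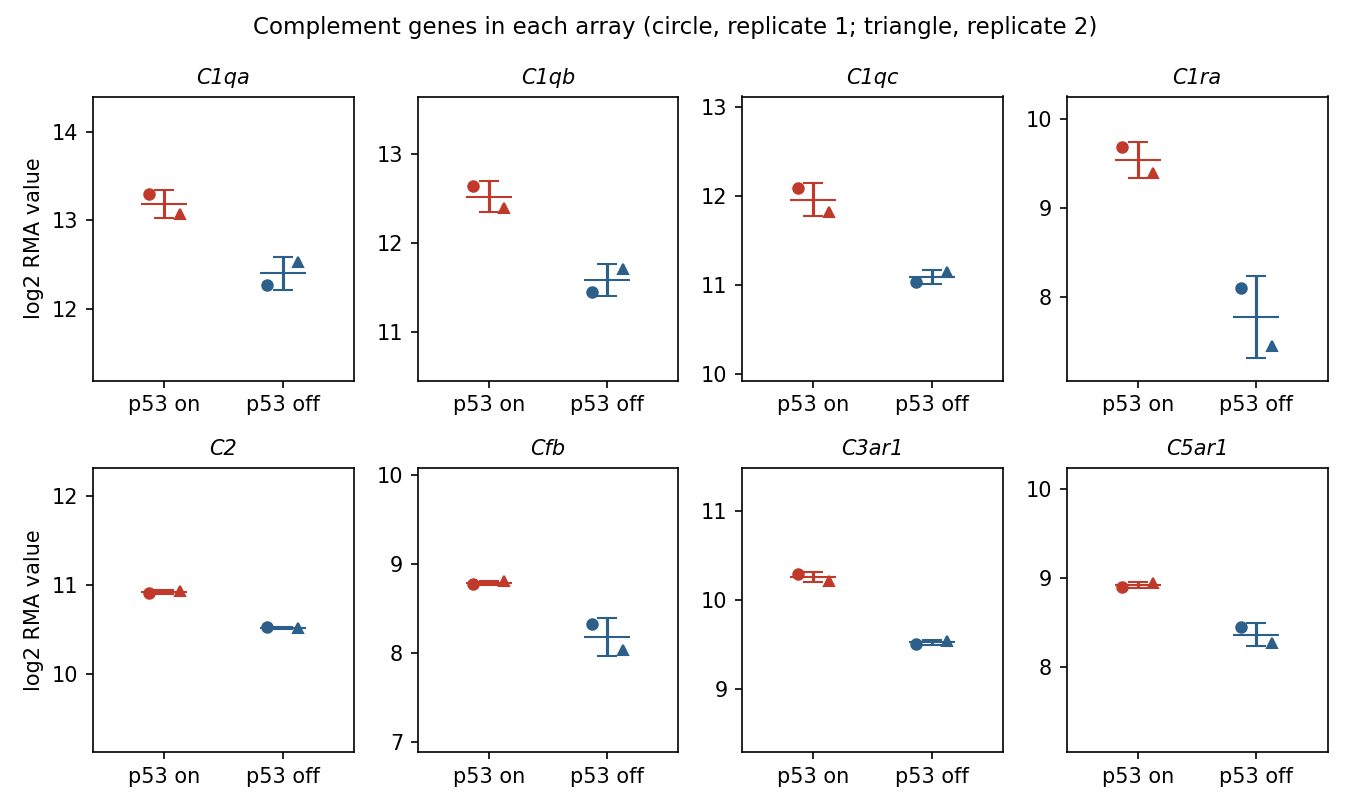
Log2 RMA values (y axis, a window of the same height in each panel) of the 8 measured complement genes in p53 on (red) and p53 off (blue) tumors. Circles and triangles are the arrays, horizontal bars the means and error bars the SD (n = 2 each); in all 8 panels both p53 on arrays lie above both p53 off arrays.

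The C1q genes rose together. C1qa, which encodes the A chain, had log2 values of 13.30 and 13.08 in p53 on tumors and 12.27 and 12.53 in p53 off tumors. The groups did not overlap, and the change was 0.79 ± 0.12 (SE, n = 2 against 2; 1.72-fold; limma adjusted p = 0.00827), with a 95% interval of 0.47 to 1.10. C1qb, which encodes the B chain, had 12.64 and 12.39 in p53 on and 11.45 and 11.70 in p53 off, a change of 0.94 ± 0.13 (1.92-fold; limma adjusted p = 0.00517; interval 0.62 to 1.26). C1qc, which encodes the C chain, had 12.09 and 11.82 in p53 on and 11.03 and 11.14 in p53 off, a change of 0.87 ± 0.11 (1.83-fold; limma adjusted p = 0.00422; interval 0.59 to 1.15). In each of the 3 genes replicate 1 was the higher p53 on array and replicate 2 the higher p53 off array. The 3 genes lie side by side on chromosome 4, with 0 other protein-coding genes between neighbours in the RefSeq annotation. The other probe sets of C1qb changed by 1.01 ± 0.098 and 0.91 ± 0.13, so that its 3 probe sets were within 0.10 of one another.

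The proteases that act after C1q were also higher. C1ra, which encodes the protease C1r, had 9.68 and 9.39 in p53 on and 8.10 and 7.44 in p53 off. The gap between the p53 off arrays was the widest within a group among the 8 genes, yet the groups stayed apart, with a change of 1.77 ± 0.23 (limma adjusted p = 0.00435; interval 1.20 to 2.34). The change was 2.10 without p53 off replicate 1 and 1.44 without p53 off replicate 2. C1ra has a near copy, C1rb, and the array cannot be assumed to tell their transcripts apart. C2, which encodes the classical pathway protease cleaved by C1s, had 10.91 and 10.93 in p53 on and 10.52 and 10.51 in p53 off in its brightest probe set, a change of 0.41 ± 0.071 (limma adjusted p = 0.0111). That probe set bears the suffix of likely cross-hybridization. The probe set of C2 without the mark had 9.88 and 10.08 in p53 on and 8.96 and 9.02 in p53 off, a change of 0.99 ± 0.092 (1.99-fold), and the remaining one changed by 0.89 ± 0.13. The size for C2 thus depended on the probe set, while the direction was the same in all 3.

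Cfb, the gene next to C2 on chromosome 17, had 8.77 and 8.81 in p53 on and 8.33 and 8.03 in p53 off. The p53 on arrays differed little and the p53 off arrays more, and the change was 0.61 ± 0.11 (1.53-fold; limma adjusted p = 0.014; interval 0.32 to 0.90). Without p53 off replicate 2 it was 0.46 with an adjusted p of 0.0621 in limma.

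Both receptors for complement fragments rose. C3ar1, the receptor of C3a, had 10.29 and 10.22 in p53 on and 9.50 and 9.54 in p53 off, a change of 0.73 ± 0.075 (1.66-fold; limma adjusted p = 0.00213; interval 0.55 to 0.92). Its other probe sets changed by 0.74 ± 0.076 and 0.52 ± 0.070, and all 3 were called. C5ar1, the receptor of C5a, had 8.90 and 8.95 in p53 on and 8.45 and 8.27 in p53 off, a change of 0.57 ± 0.091 (1.48-fold; limma adjusted p = 0.00847; interval 0.34 to 0.79). Its other probe set had 8.44 and 8.33 in p53 on and 8.36 and 7.81 in p53 off. There the groups overlapped, and the change of 0.31 ± 0.18 was not called (limma adjusted p = 0.294). It was the only one of the 15 probe sets not called, beside 11.3% of all probe sets called higher. With the mean of both probe sets the change of C5ar1 was 0.44 (limma adjusted p = 0.055).

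**Figure D2:**
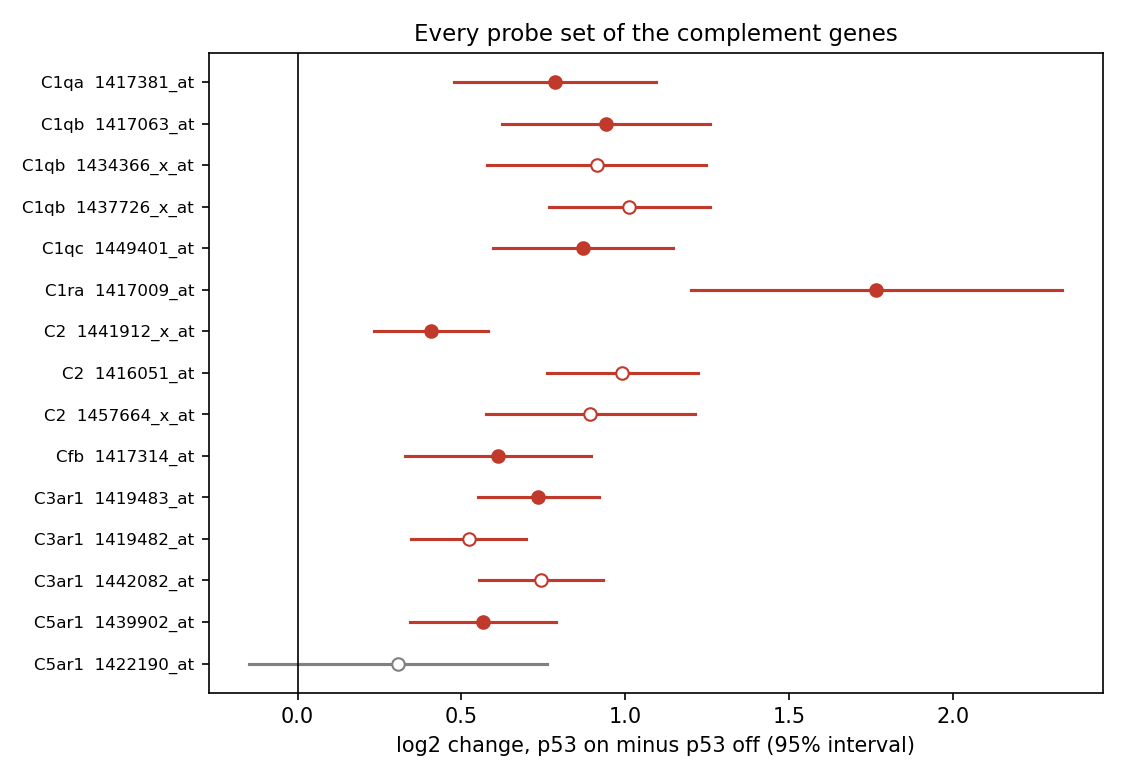
Log2 change, p53 on minus p53 off (x axis, with 95% intervals from limma), of each of the 15 probe sets of the complement genes. Filled points are the brightest probe set of a gene, red is called higher and grey not called; the interval crosses 0 for 1 probe set of C5ar1, and the brightest probe set of C2 lies at 0.41, against 0.89 and 0.99 for the other C2 probe sets.

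C1q was set beside the other components within each array, as the mean of the log2 values after subtracting the p53 off mean of each gene. For C1qa, C1qb and C1qc this was 0.99 and 0.74 in p53 on and -0.10 and 0.10 in p53 off. For C1ra, C2 and Cfb it was 0.97 and 0.89 in p53 on and 0.16 and -0.16 in p53 off. Hepatocytes and stromal cells are known to make these, but not they alone, so the grouping does not separate macrophages from other cells. For C3ar1 and C5ar1 it was 0.66 and 0.64 in p53 on and 0.04 and -0.04 in p53 off. The mean changes were 0.87, 0.93 and 0.65. The C1q genes were close to one another in size, whereas the soluble components ranged from 0.41 for C2 to 1.77 for C1ra. Their mean thus describes no single gene, and it rests on the brightest probe set of C2, marked for cross-hybridization. The probe set of C2 without the mark changed by 0.99. Differences in change between these genes were not tested, and the cells that made each transcript were not identified.

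The rest of the cascade moved less uniformly. Of 53 other complement genes in 6 lists 41 were measured, of which 9 were called higher and 3 lower (28.7% of all genes were called), with a median change of 0.06 (-0.016 after median centring and 0.19 after spike-in scaling, which moved all genes up). Spike-in scaling called 15 of them higher. Some lists were dim. Genes of the terminal pathway averaged 6.82 and 6.82 in p53 on and 6.65 and 6.63 in p53 off. The initiators averaged 7.32 and 7.24 in p53 on and 7.13 and 7.08 in p53 off. All genes averaged 8.38 and 8.40 in p53 on and 8.38 and 8.37 in p53 off, and the soluble regulators and receptors lay above that. Changes of dim genes can be compressed, so an uncalled gene is not shown to be unchanged.

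C1s1, which encodes the protease C1s and lies next to C1ra, had 9.59 and 9.35 in p53 on and 8.11 and 7.92 in p53 off. The change was 1.45 ± 0.12 (limma adjusted p = 0.00121), in a probe set marked as matching more than 1 transcript. None of the other 8 measured initiator genes, which belong to the lectin pathway, was called, and the one with the smallest p was Mbl2, a mannose-binding lectin, at 0.19 ± 0.074 (limma adjusted p = 0.114). C4b, which C1s cleaves, was not analysed here. Cfp, which encodes properdin, the stabiliser of the alternative pathway convertase made by leukocytes, had 9.59 and 9.58 in p53 on and 8.87 and 8.91 in p53 off. It rose by 0.69 ± 0.071 (limma adjusted p = 0.00218) and was the only measured gene of its list.

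Among 6 measured genes of the terminal pathway, which forms the membrane attack complex, 2 were called higher. C6 had 9.33 and 8.96 in p53 on and 8.58 and 8.68 in p53 off, a change of 0.52 ± 0.13 (limma adjusted p = 0.038), or 0.34 without p53 on replicate 1. Hc, the mouse gene of C5, changed by 0.31 ± 0.084 (limma adjusted p = 0.0445). It was dim, with 6.08 and 6.20 in p53 on and 5.78 and 5.88 in p53 off. Over 14 alternatives the call of C6 held in 10, and over 13 that of Hc in 6; both were lost without either p53 off array. C8a, C8b, C8g and C9 were not called, and C9 had the smallest p of these at 0.20 ± 0.073 (limma adjusted p = 0.0965).

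Regulators split by gene. Serping1, which encodes the C1 inhibitor that removes C1r and C1s from C1q, had 12.82 and 12.50 in p53 on and 11.81 and 11.73 in p53 off. It rose by 0.89 ± 0.12 (1.85-fold; limma adjusted p = 0.00528). Clu, which encodes clusterin, an inhibitor of the membrane attack complex, had 13.55 and 13.47 in p53 on and 14.47 and 14.48 in p53 off. It fell by 0.97 on the log2 scale (SE 0.075; limma adjusted p = 0.00105). C1qbp, whose mainly mitochondrial product binds C1q heads, changed by -0.49 ± 0.086 (limma adjusted p = 0.0114), or by -0.95 in its probe set without a cross-hybridization mark, and Thbd, which encodes thrombomodulin, by -0.50 ± 0.095 (limma adjusted p = 0.015). The calls were lost for C1qbp without p53 off replicate 2 (adjusted p = 0.0884 in limma) and for Thbd without either p53 off array (0.0861 and 0.0712). Of 10 measured genes listed as soluble regulators 1 rose, 3 fell and 6 were not called. Among the 6 not called Cfhr2 had the smallest p, at 0.24 ± 0.084 (limma adjusted p = 0.0866). The list is loose, since thrombomodulin is a membrane protein and the C1qbp product is mainly mitochondrial. Of the 3 that fell, only Clu encodes a soluble regulator in the strict sense. Of 7 membrane regulators 1 was called. This was Cd59a, which blocks the membrane attack complex, at 0.31 ± 0.084 (limma adjusted p = 0.0427), and its call held in 6 of 14 alternatives. Cd46 was at 0.21 ± 0.074 (limma adjusted p = 0.0851).

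Of 8 measured receptors and adaptors 3 rose. Cd93, a surface protein of endothelial and myeloid cells once described as a C1q receptor, had 11.09 and 11.26 in p53 on and 10.38 and 10.33 in p53 off, a change of 0.82 ± 0.089 (limma adjusted p = 0.00255; 0.39 with the mean of all its probe sets). Lrp1, an endocytic receptor, rose by 0.81 ± 0.096 and Itgax, the alpha chain of complement receptor type 4, by 0.64 ± 0.072. Itgb2, the beta chain that Itgax and Itgam share, was at 0.22 ± 0.071 (limma adjusted p = 0.0715). Vsig4, the complement receptor of resident tissue macrophages, had 8.53 and 7.47 in p53 on and 7.60 and 7.70 in p53 off, and Itgam had 7.40 and 7.26 in p53 on and 7.43 and 7.57 in p53 off. In Vsig4 only p53 on replicate 1 stood above the p53 off arrays; Vsig4 and Itgam were chosen once their values were known.

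**Figure D3:**
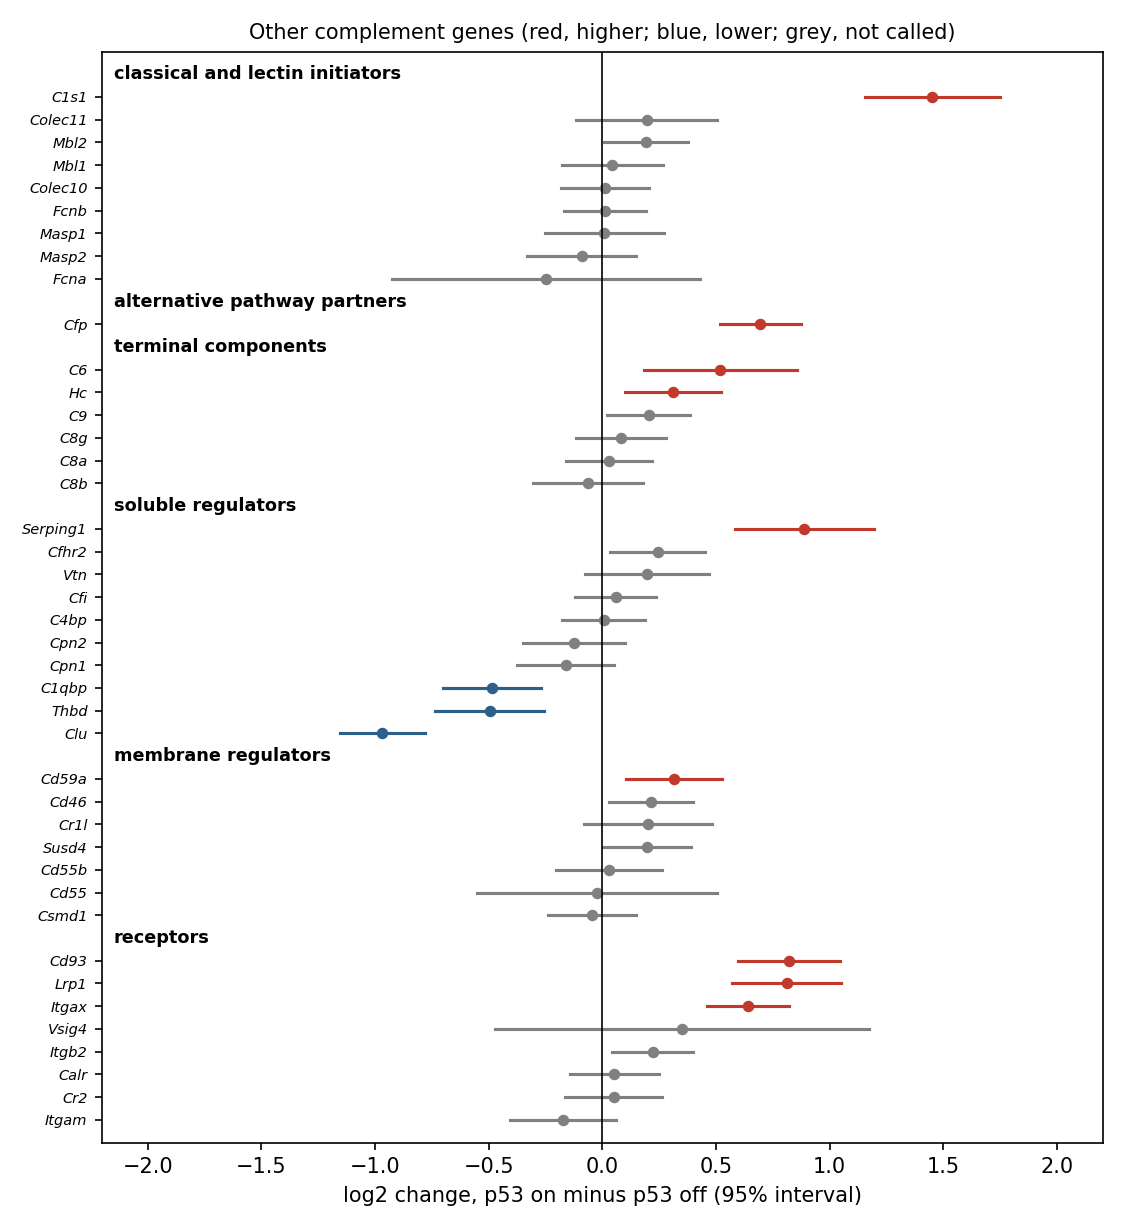
Log2 change, p53 on minus p53 off (x axis, with 95% intervals from limma), of the 41 other measured complement genes by role. Red points were called higher (9 genes, C1s1 the largest), blue points lower (3 genes) and grey points not called (29 genes). The blue points are all in the list of soluble regulators, which also holds Thbd and C1qbp.

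Markers of several cell types moved with the complement genes, and their part in the changes was not tested. Of 17 measured macrophage markers 15 rose and 0 fell, with a median of 0.85. The largest changes were those of Ms4a7 at 1.44 ± 0.074 (0.93 with the mean of its probe sets), Adgre1, which encodes F4/80, at 1.17 ± 0.092, Csf1r, the receptor of macrophage colony stimulating factor, at 1.16 ± 0.10, and Aif1 at 1.11 ± 0.073. The calls of Fcgr1, Cd14 and Cx3cr1 were lost without p53 off replicate 2, and that of Cd14 also without p53 off replicate 1. Laptm5, at 0.64, was at 0.014 in its probe set without a cross-hybridization mark, and Trem2, at 0.94, was at -0.074. The other called markers that had unmarked probe sets kept their calls with them. Adgre1 and Aif1 had no unmarked probe set and could not be tested there. The mean log2 value of the list was 11.11 and 11.04 in p53 on and 10.30 and 10.25 in p53 off. After subtracting the p53 off mean of each gene, the macrophage markers averaged 0.83 and 0.76 in p53 on, beside 0.99 and 0.74 for C1q, and the mean changes were 0.80 and 0.87. Of 6 markers of Kupffer cells, the resident macrophages of the liver, 0 were called with limma (0 at an unadjusted p under 0.05), and Cd5l had the smallest p, at 0.16 ± 0.074. The number called was 1 with spike-in scaling and 1 without p53 on replicate 2, and the median of 0.06 was -0.012 after median centring. Their mean value was 7.07 and 6.89 in p53 on and 6.92 and 6.89 in p53 off. The mean over all genes was 8.38 and 8.40 in p53 on and 8.38 and 8.37 in p53 off. Changes of such dim genes can be compressed.

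C3ar1 and C5ar1 are also made by neutrophils and mast cells. Of 10 neutrophil markers 1 rose, Csf3r at 0.38 ± 0.081 (call lost without either p53 off array and without p53 on replicate 2), while their mean was 7.59 and 7.39 in p53 on and 7.55 and 7.22 in p53 off. Of 7 mast cell markers 5 rose, and their mean was 8.81 and 9.45 in p53 on and 7.80 and 7.33 in p53 off. Cma1 changed by 2.70 ± 0.48, Tpsb2 by 2.59 ± 0.30 (0.10 in its probe set without a cross-hybridization mark), Cpa3 by 2.53 ± 0.31 and Mcpt4 by 1.49 ± 0.30. With unmarked probe sets only Cpa3 of the list was called. Cma1, Mcpt4, Kit and Hdc had no unmarked probe set and could not be tested there. Leaving out p53 off replicate 2 ended the calls of Cma1 (limma adjusted p = 0.0559), Mcpt4 (0.104) and Kit (0.135), which left 2 called. Mast cell markers were higher in p53 on replicate 2, and C1qa, C1qb and C1qc in p53 on replicate 1. In p53 on replicates 1 and 2, C3ar1 had 10.29 and 10.22 and C5ar1 had 8.90 and 8.95. Such differences between 2 single arrays were not tested. Of 7 dendritic cell markers 4 rose, namely Zbtb46 at 2.75 ± 0.088 (1.30 with the mean of its probe sets), Batf3 at 0.89 ± 0.22 (0.58 without p53 off replicate 1, and not called there or without p53 on replicate 2), Cd209a at 0.82 ± 0.089 and Flt3 at 0.32 ± 0.081 (call held in 8 of 14 alternatives). The number was 2 without p53 off replicate 1.

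C1ra, C2 and Cfb are known products of hepatocytes and fibroblasts, though not of these alone, and the cells that made them in these tumors were not identified. Of 15 measured hepatocyte plasma protein genes 3 fell and 0 rose, with a median of -0.03. These were Apob at -3.27 ± 0.21 (-1.54 with the mean of its probe sets), Serpina1b at -1.35 ± 0.22 and Ahsg at -0.45 ± 0.12; the last 2 lost their calls without p53 off replicate 2, and Ahsg also without p53 on replicate 1. After spike-in scaling the median was 0.10 and Ahsg was not called. Alb, the albumin gene, had 7.39 and 6.96 in p53 on and 7.07 and 7.06 in p53 off. The mean of the hepatocyte list was 6.88 and 6.81 in p53 on and 7.17 and 7.22 in p53 off. That of the acute phase genes was 7.11 and 6.91 in p53 on and 6.94 and 6.86 in p53 off. Both lists were dimmer than the mean over all genes, and changes of such dim genes can be compressed. Of 13 acute phase genes, which the liver makes in inflammation together with complement, 1 rose, Saa3 at 1.01 ± 0.21, a serum amyloid gene that macrophages also make, and the median was 0.04, or -0.031 after median centring. Without p53 on replicate 2 the number called was 2. Of 12 fibroblast markers 10 rose, led by Lum at 3.01 ± 0.15, Dcn at 2.53 ± 0.26, Pdgfrb at 0.93 ± 0.091 and Col6a3 at 0.79 ± 0.091, and their mean was 12.92 and 12.91 in p53 on and 12.09 and 11.85 in p53 off. The calls of Col1a1, Col1a2 and Col3a1 were lost without p53 off replicate 2, and that of Col1a1 also without p53 off replicate 1. Of 10 endothelial markers 8 rose (median 0.73; Tek 1.40 ± 0.19, Vwf 1.02 ± 0.15, Emcn 0.93 ± 0.074, Tie1 0.79 ± 0.15). Leaving out either p53 off array left 4 of them called, since Pecam1, Cdh5, Kdr and Tie1 were not called in either case, and leaving out p53 on replicate 1 gave 10. Of 9 epithelial markers 6 fell and 1, Epcam, rose (median -1.04; Epcam not called without p53 off replicate 2), with Krt18 at -1.61 ± 0.10, Krt8 at -1.36 ± 0.10, Cldn4 at -1.34 ± 0.12 and Cdh1 at -1.20 ± 0.13.

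Interferon gamma is known to raise C1r, C1s, C2, factor B and the C1 inhibitor. Of 15 measured genes of the interferon gamma response, none of them a complement gene, 12 rose and 0 fell, with a median of 0.68, and 5 rose without p53 off replicate 2, where the call of Psmb8 was among those lost. The part of this response in the complement changes was not tested. Iigp1 changed by 1.63 ± 0.16, Irf8 by 1.49 ± 0.072, Psmb9 by 1.47 ± 0.20 and Psmb8 by 1.17 ± 0.18 (0.76 with the mean of its probe sets). The mean of the list was 9.67 and 9.99 in p53 on and 9.12 and 8.95 in p53 off. In p53 on the list was higher in replicate 2, while C1ra, C1s1 and Serping1 were higher in replicate 1. C2 and Cfb differed by about 0.03 between the p53 on arrays in the probe sets used. The other probe sets of C2 were higher in p53 on replicate 2, at 10.08 against 9.88 and at 9.54 against 9.36. These differences between single arrays were not tested.

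**Figure D4:**
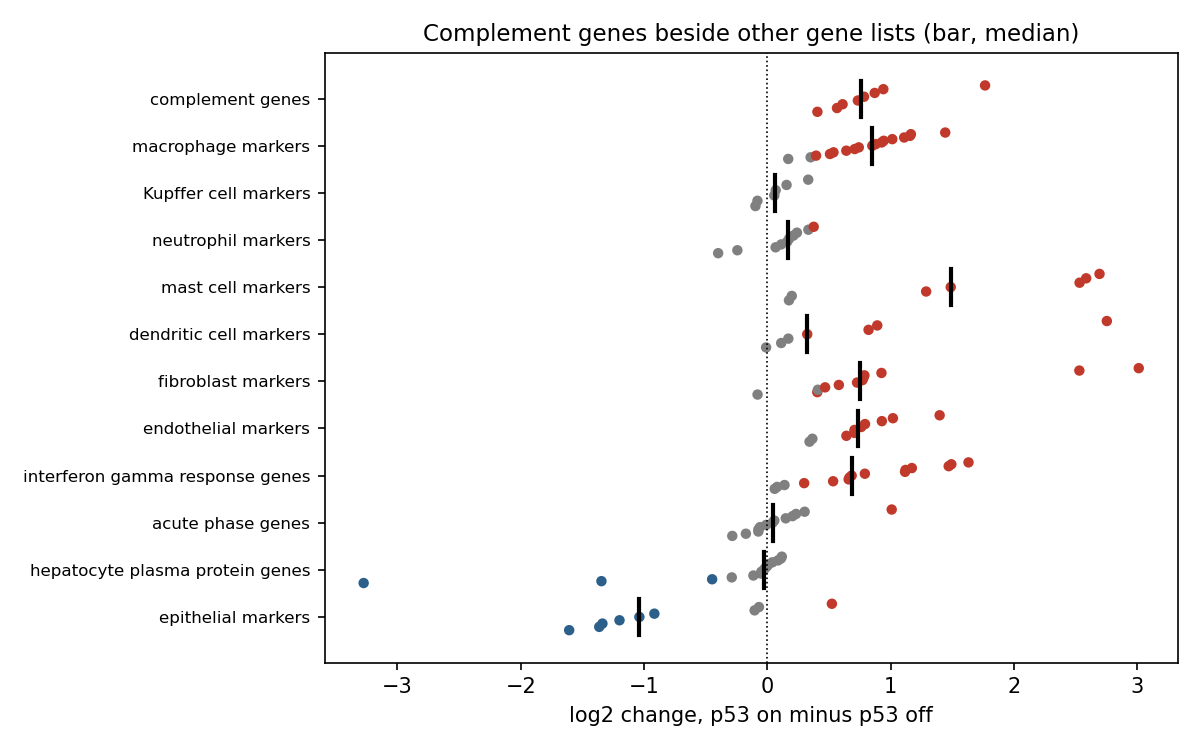
Log2 change, p53 on minus p53 off (x axis), of each measured gene of the complement set and of 11 other lists; the black bar is the median of a list, red points were called higher, blue lower and grey not called. Medians of the complement set (0.76), macrophage (0.85), fibroblast (0.75) and endothelial markers (0.73) and interferon gamma response genes (0.68) lie close together. Those of Kupffer cell (0.06), acute phase (0.04) and hepatocyte genes (-0.03) lie near 0, on either side of it depending on the scaling. The Kupffer cell, acute phase and hepatocyte lists are dim, so that their changes can be compressed.

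The genes whose pattern over the 4 arrays was nearest to the mean of C1qa, C1qb and C1qc were Ints6l, P2rx7, Lpar1, Fam53b and Coq8a. Nearness was the root mean square distance between log2 values centred on the mean of each gene, and it was 0.016 for Ints6l, 0.03 for P2rx7 and Lpar1 and 0.04 for Fam53b and Coq8a. The C1q genes themselves lay at 0.045 (C1qa), 0.041 (C1qb) and 0.035 (C1qc) from their mean. With 4 arrays in 2 groups many genes come this close, and nothing is read from the names.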

How the data were processed

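Total RNA of 4 tumor samples (2 p53 on, 2 p53 off, grouped by the sample titles) had been extracted with Trizol, amplified and biotin-labelled, per the labels' protocols. The deposited log2 values, 1 per probe set and array, were made with RMA (background correction, quantile normalization, summarisation), per the submitters' processing notes (limma 3.14.4 is listed there too). No source used here gives a build or annotation. RMA makes no detection call, so that changes of dim genes can be compressed, and the number of arrays limits the precision.

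A platform annotation table gave 34945 of 45101 probe sets exactly 1 symbol, 932 several and 9160 none; 64 were controls. A gene was its brightest probe set of exactly 1 symbol (18193 genes, no filter). Genes, and separately all probe sets, were fitted as p53 on minus p53 off with lmFit and eBayes (limma 3.58.1, R 4.3.3; 2 residual and 5.47 moderated degrees of freedom for genes), adjusted by Benjamini-Hochberg over all of them and called at 0.05. The fit was tested on simulated data. No permutation test across 2 against 2 arrays can reach 0.05, so none was used.

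The rule for naming genes took every member, all called genes of the wider complement lists and the uncalled one of smallest p in each, up to 4 called genes of largest change per marker list, and the 5 genes of most similar pattern. Named after their values were seen were Vsig4, Itgam, Alb and Epcam, and the uncalled genes C8a, C8b and C8g. Further marker genes beyond the rule, such as Trem2, Laptm5 and Kit, were named for how their values or calls held under the alternatives. The members and lists were chosen with earlier results of these data known. The pattern planned for C3 and a comparison of C1q protein sequences were not run, since neither C3 values nor protein sequences were used here. Sequences came from RefSeq (GRCm38.p6), and 5 of 8 measured members matched the promoter table. The alternatives were a replicate block (also crossed, added after seeing the data), quantile normalization, median centring, spike-in scaling, leaving out the dimmest 40% of genes, the mean of all probe sets, probe sets without a cross-hybridization mark, trend and robust eBayes, testing all probe sets, a size threshold of 1 and leaving out each array.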

Additional observations from a re-analysis of the deposited data

How the results depend on the processing

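Over the alternatives that give a change, the 8 complement genes were positive in all 112 fits and kept their call in 107. The sign could not turn in most of these fits, so its count is no independent check. Several settings return the change of the main fit unaltered, and genes whose groups do not overlap stay positive without any 1 array. The calls that were lost were those of C5ar1 with the mean of all probe sets (0.44, limma adjusted p = 0.055), C2 without p53 off replicate 1 (0.41, 0.0645) or 2 (0.40, 0.0848), and C5ar1 (0.47, 0.0597) and Cfb (0.46, 0.0621) without p53 off replicate 2. Over all these settings the adjusted p of limma ran from 0.00174 to 0.0848 for C2, from 0.00411 to 0.0597 for C5ar1 and from 0.00643 to 0.0621 for Cfb. Leaving out 1 array, changes ran from 0.39 to 0.42 for C2, from 0.47 to 0.66 for C5ar1 and from 0.46 to 0.76 for Cfb, and complement genes of the set called higher numbered 5 to 8. Other complement genes called lower numbered 1 (without p53 off replicate 2) to 5 (without p53 on replicate 1), and all genes called 2228 to 5055 (1093 to 2573 higher, 1135 to 2711 lower), the lowest without p53 off replicate 2 and 3259 without p53 off replicate 1. With either p53 off array left out, only the p53 on arrays give a spread, and the lone p53 off array is assumed to vary like them. Spike-in scaling called 4421 genes and 15 other complement genes higher. A size threshold of 1 left 960 genes (496 higher, 464 lower), 1 of the set (C1ra) and 1 higher and 0 lower of the other complement genes. Trem2, a macrophage marker at 0.94, was at -0.074 in its probe set without a cross-hybridization mark (limma adjusted p = 0.507); the cause was not tested. Of the other listed genes, calls were lost in 90 fits and gained in 41. Deviations of equally numbered arrays correlated at -0.154, so the numbers were not taken as pairs; the replicate block called 4323 genes and all 8 of the set, and the crossed block 3954 and 8. The change of each member is the same in both blocks as without (0.79 for C1qa) by construction, since each block holds an array of each group. Only the spread, and with it the calls, could differ.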
